A study of Nothobranchius furzeri with 6 samples.

Results

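The rows mir-338 and mir-219 were examined in small RNA libraries from killifish brain (Nothobranchius furzeri, a fish of seasonal ponds that lives for months). They are listed as nfu-mir-338 and nfu-mir-219, the rows whose name, with the species prefix ignored, is exactly mir-338 or mir-219, and they make up 2 of the 324 features in the deposited table of counts. All 6 libraries came from males of the strain MZM-04/10p, aged 39 weeks and with no treatment given in the labels, so they form 1 group. Levels and their spread between libraries can therefore be given, while ages, sexes and treatments cannot be compared. Each library carries its own code, but the labels do not say whether each came from a separate animal, so the p-values below measure the spread between these libraries only.

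A miRNA is a short RNA that guides a silencing complex to matching messenger RNAs and lowers their output. In mouse, miR-219 and miR-338 are raised when oligodendrocyte precursors stop dividing and begin to make myelin, the sheath around axons. There they repress messengers that hold precursors in the dividing state, among them Sox6 and Hes5, and miR-219 also represses that of the growth factor receptor Pdgfra. Neither is known from oligodendrocytes alone: miR-338 lies in an intron of the mammalian gene for the kinase AATK, which is active in neurons, and miR-219 has been studied in the mouse circadian clock. The name "oligodendrocyte family" rests on this background. Bulk small RNA holds no messenger markers of myelin, so the cell source of the reads could not be checked here, and fewer cells of a type cannot be told apart from less RNA per cell.

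Some brain families stood high in the libraries: mir-9, found in neurons and their progenitors, took 5.21% of counts and neuronal mir-128 took 6.51% on average. Other neuronal families took less: mir-132 1.94%, mir-153 0.868%, mir-124 0.408% and mir-137 0.0620%. Total counts ranged from 11924483 to 16597229, and TMM factors, which correct for differences in composition, from 0.958 to 1.05. Levels are given below as CPM, each count relative to the TMM-corrected total of its library. Intervals for single libraries are exact 95% binomial intervals (Clopper-Pearson), which take in the counting error of reads and nothing else. Without molecular identifiers several reads can stem from 1 molecule, so for molecules these intervals can be too narrow. Counting error below means that of reads. A count of 3, taken as the floor of detection, was 0.173 to 0.256 CPM, far under either family. Rows are not corrected for length, as mature miRNAs are of nearly equal length. Ligation of adaptors favours some RNA ends over others, so a ratio between families mixes abundance with that preference.

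Both families were well above the floor in each library, and mir-338 was the higher by an order of magnitude. In libraries 1 to 6, mir-338 stood at 18890, 18112, 14772, 17703, 15880 and 19943 CPM. It was highest in library 6 and lowest in library 3, a 1.35-fold range. The mean was 17550 ± 1917 CPM (SD, n = 6), from counts of 194577 to 266774.

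The level of mir-219 in libraries 1 to 6 was 1138, 1282, 1170, 1079, 1134 and 1068 CPM. Library 2 was highest and library 6 lowest, a 1.20-fold range. Its mean was 1145 ± 77.2 CPM (SD, n = 6), from counts of 12640 to 20330. Library 6, where mir-338 peaked, thus held the least mir-219. DESeq2 size factors left both orders of libraries as they were. As plain shares of the total, given further on, mir-338 was instead highest in library 1, and libraries 3 and 5 were lowest with overlapping intervals.

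**Figure D1:**
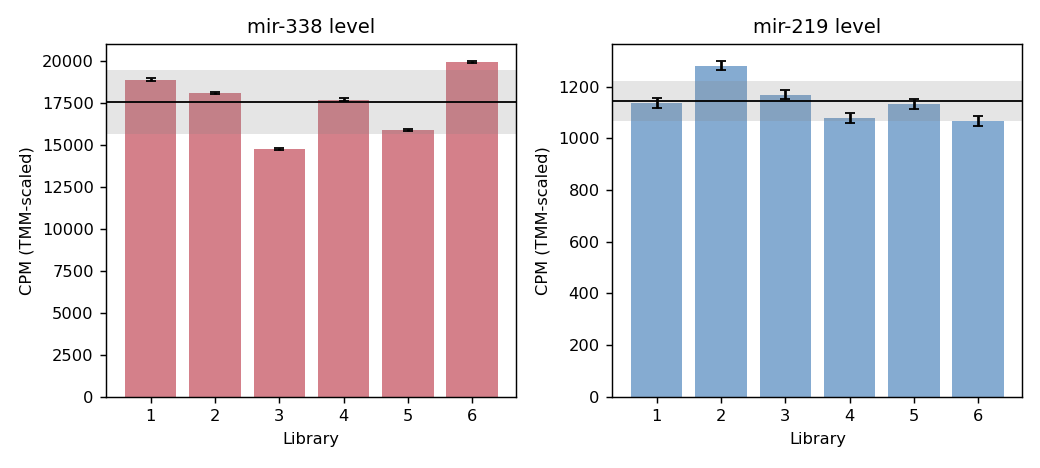
Level of mir-338 (left) and mir-219 (right) in CPM by library. Bars are single libraries with exact 95% binomial intervals, the line is the mean over 6 libraries and the band is 1 SD; mir-338 ran from 14772 to 19943 CPM and mir-219 from 1068 to 1282 CPM.

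Counting error was small beside these differences. The coefficient of variation between libraries was 10.9% for mir-338, where counting alone gives 0.207%. For mir-219 it was 6.75%, with 0.804% from counting alone. Of the 15 pairs of libraries, none had overlapping intervals for mir-338. For mir-219 the intervals overlapped in 3 pairs, namely libraries 1 and 3, 1 and 5, and 4 and 6, so these neighbours in its order were not separable by counting error on the TMM-scaled values. The count of overlaps depends on the scaling: as plain shares of the total, 1 pair overlapped for mir-338, libraries 3 and 5, and 0 for mir-219.

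As a share of all counts, mir-338 took 1.94%, 1.84%, 1.55%, 1.74%, 1.55% and 1.91% of libraries 1 to 6. The corresponding shares of mir-219 were 0.117%, 0.130%, 0.122%, 0.106%, 0.110% and 0.102%. Together they summed to between 1.66% in library 5 (interval 1.65% to 1.66%) and 2.06% in library 1 (2.05% to 2.07%). The sum followed mir-338, since mir-219 made up only 6.19% ± 0.824 of it (SD, n = 6), from 5.08% in library 6 to 7.34% in library 3.

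How far the balance of the pair varied was asked next, because a ratio of counts within a library needs no scaling. For each count of mir-219 there were 16.6, 14.1, 12.6, 16.4, 14.0 and 18.7 counts of mir-338 in libraries 1 to 6. The interval was 18.3 to 19.0 in library 6 and 12.5 to 12.8 in library 3, so that these extremes differed 1.48-fold, beyond counting error. The log2 ratio averaged 3.93 ± 0.21 and was positive in 6 of 6 libraries. Flipping signs over the libraries in an exact two-sided permutation test gave p = 0.03125, the lowest value that 6 libraries can reach. The order of the families was known before this test was made.

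The families did not share an order of libraries. From high to low, mir-338 ran through libraries 6, 1, 2, 4, 5 and 3, and mir-219 through libraries 2, 3, 1, 5, 4 and 6. On the log2(CPM + 1) scale, mir-338 deviated from its mean by 0.19 in library 6 and by -0.24 in library 3. The deviations of mir-219 in those libraries were -0.10 and 0.03, of opposite sign. Both families lay on the same side of their means in 2 of 6 libraries, above in library 2 and below in library 5. This count depends on the scaling, and in library 1 mir-219 deviated by only -0.006. On plain CPM, relative to the uncorrected total, library 1 was above both means and library 4 below both. On that scale mir-338 stood at 19421 in library 1 and 17394 in library 4 (mean 17535). For mir-219 the values were 1170 and 1060 (mean 1147). On the TMM-corrected log2 scale, Pearson's r over the 6 libraries was -0.25 (exact permutation p = 0.651). Spearman's rho was -0.37 (exact permutation p = 0.497), and r was -0.38 without the 2 libraries farthest from the median of mir-338.

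**Figure D2:**
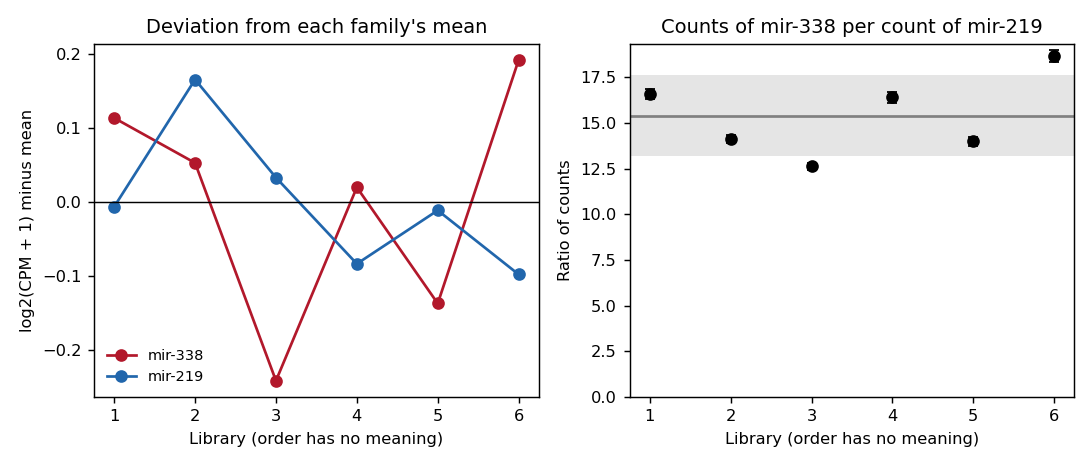
Left, log2(CPM + 1) of mir-338 (red) and mir-219 (blue) minus the family's own mean, by library; right, counts of mir-338 per count of mir-219 with exact 95% intervals, the mean (line) and 1 SD (band). On these TMM-corrected levels the families deviate in opposite directions in 4 of 6 libraries, most in libraries 3 and 6. On plain CPM they deviate in the same direction in libraries 1 and 4 as well. The ratio runs from 12.6 to 18.7.

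No relation of these values to depth passed a test. Library 3, the lowest for mir-338, had the largest total, and libraries 2 and 3, the highest for mir-219, had the highest 2 totals. Against the log2 total count, r was -0.60 for mir-338, 0.59 for mir-219 and -0.74 for their log2 ratio, with exact permutation p-values of 0.201, 0.224 and 0.0861. Spearman's rho was -0.26, 0.54 and -0.49, with exact permutation p-values of 0.658, 0.297 and 0.356. Over the 3 relations the Benjamini-Hochberg adjusted p was 0.224 for each r by the same exact permutation test, and 0.533 to 0.658 for rho. Without the 2 libraries farthest from the median total, r was 0.02, -0.21 and 0.07, so the coefficients rested on libraries 2 and 3. They were computed after the levels had been seen.

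The summed shares of families that mark other cell types also differed between libraries, and none of their rows was at 0 in any library. These sums are plain shares of the total, a scale on which libraries 3 and 5 were both lowest for mir-338. In library 3, the lowest for mir-338 in CPM, the summed neuronal list was lowest at 8.15%, against 9.01% to 12.6% elsewhere. That sum is mostly mir-128 (6.51% of counts on average, of 9.79% for the list), and its families did not share a lowest library. In CPM, mir-124 was instead highest in library 3 (4885), mir-153 was lowest in library 5 (5869) and mir-137 in library 1 (483.4). The epithelial and skin list was highest in library 3 at 0.0567%, against 0.00830% to 0.0324%. The list of retina, pineal and choroid plexus was highest there too, at 1.21%, against 0.962% to 1.16%. That sum is mostly mir-204 (0.815% of counts on average, of 1.07% for the list). In CPM, mir-204 was highest in library 3 (8823), but mir-182, mir-183 and mir-96 were not. In library 5 the red blood cell list was lowest at 0.0186%, against 0.0380% to 0.0643% elsewhere, and endothelial mir-126 was lowest at 0.265%, against 0.330% to 0.449%. The summed list of microglia and white blood cells was highest in library 5, at 0.0549%, against 0.0366% to 0.0498%. Its families did not move together: in library 5 mir-146 was at its highest, 418.7 CPM, and mir-142 at its lowest, 116.6 CPM. The highest library was 1 for mir-223 (44.0 CPM) and 2 for mir-155 (5.97 CPM).

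In library 6, the highest for mir-338 in CPM and lowest for mir-219, mir-9 was highest at 5.57%, against 5.04% to 5.23%. As a plain share, the scale of these lists, mir-338 was instead highest in library 1 (1.94%, against 1.91% in library 6). The summed muscle list was lowest in library 6 at 0.0763%, against 0.0952% to 0.131% elsewhere. That sum is mostly mir-133, lowest in library 6 at 769.3 CPM, while mir-1 was lowest in library 5 (10.9 CPM) and mir-499 in library 1 (1.30 CPM). The list of vessel smooth muscle ran from 0.402% in library 4 to 0.606% in library 1. Its families did not share a lowest library: mir-145 was lowest in library 4 (151.0 CPM) and mir-143 in library 5 (3790 CPM). The summed endocrine list ran from 0.0259% in library 1 to 0.195% in library 2, the highest for mir-219. Its families did not move together: in library 6 mir-375 was at its lowest, 5.23 CPM, and mir-7 at its highest, 921.0 CPM. The part of these shares in the levels of mir-338 and mir-219 was not tested.

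Whether either family varied more than features of like abundance was tested by edgeR's goodness of fit, over the 214 features that averaged 10 counts or more. The test called 8 of 214 features variable (3.74%) at a Benjamini-Hochberg adjusted p under 0.05. Neither mir-338 nor mir-219 was among them, and the adjusted p was 0.9999 for each. The unadjusted p from the same edgeR test was 0.984 for mir-338 and 0.999 for mir-219. The fitted trend allowed a wide spread, a coefficient of variation of 0.303 at the level of mir-338 and 0.350 at that of mir-219. At such levels only spreads well beyond the trend could be called, so these p-values do not measure how steady a family was.

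Within the range of features, mir-219 was among the steadiest on TMM-corrected levels. The SD of its log2(CPM + 1) was 0.09, against a median of 0.27 over all 214, and 9 of the other 213 had a smaller SD. For mir-338 the SD was 0.16, and 42 of the other 213 had a smaller one. Among the 20 features nearest in mean CPM, 7 were steadier than mir-338 and 1, mir-19, was steadier than mir-219. None of the 20 nearest to either family was called variable.

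The SD of log2(CPM + 1) of each family was also computed without each library in turn. Leaving out the value farthest from the mean lowers an SD in any data, so such a fall does not single out a library. Without library 3 the SD of mir-338 on this scale was 0.12, and without any other it was 0.15 to 0.18. Without library 2 the SD of mir-219 was 0.06, and without any other it was 0.09 to 0.11. The absolute log2 deviation averaged 0.13 for mir-338 and 0.07 for mir-219 and was the larger for mir-338 in 4 of 6 libraries. Tested by exact two-sided permutation (sign flips), this difference had p = 0.281, so a greater spread of mir-338 was not shown.

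**Figure D3:**
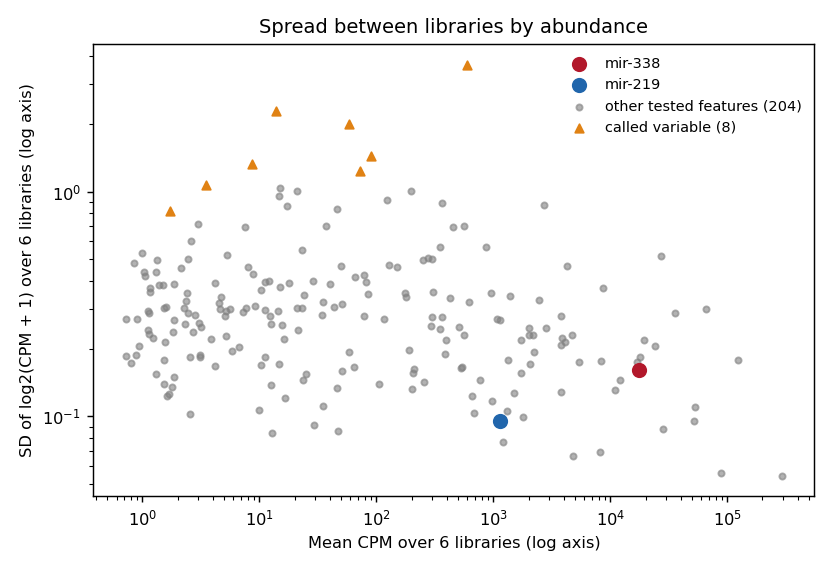
SD of log2(CPM + 1) over 6 libraries against mean CPM, both on log axes, for the 214 tested features; mir-338 is red, mir-219 is blue, orange triangles are the 8 features called variable and grey points are the rest. Both families lie in the lower part of the cloud, at SDs of 0.16 and 0.09, and all orange triangles lie above them.

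By mean level, mir-338 ranked 13 and mir-219 ranked 46 of 324. Across single libraries the rank of mir-338 ran from 10 to 14 and that of mir-219 from 44 to 47. Each family was set against the 2 features next above and the 2 next below it, by exact two-sided sign-flip permutation tests adjusted over these 8 comparisons.

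Around mir-338, neuronal mir-132 (19494 ± 2960 CPM) and the fish family mir-724 (18116 ± 2197 CPM) stood above, and mir-92 (17034 ± 2224 CPM), of the growth-promoting miR-17-92 cluster, stood below (SD, n = 6 each). The log2 ratio of mir-338 to these was -0.15 ± 0.21, -0.04 ± 0.23 and 0.04 ± 0.29. These 3 steps were within the spread between libraries, with mir-338 the higher in 2, 3 and 4 of 6 libraries. The step to mir-21, a family raised in injury and growth (12133 ± 1184 CPM), was larger: mir-338 was higher in 6 of 6, by 0.53 ± 0.27.

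Around mir-219 the levels lay close. The log2 ratio of mir-219 was -0.07 ± 0.08 to mir-19 (1205 ± 66.1 CPM), 0.02 ± 0.27 to motor neuron mir-218 (1146 ± 203 CPM) and 0.11 ± 0.21 to muscle mir-133 (1076 ± 189 CPM). It was 0.23 ± 0.14 to mir-17 (977.2 ± 80.9 CPM), with mir-219 the higher in 6 of 6 libraries. Of the 8 steps, those to mir-21 and mir-17 reached p = 0.03125 in the exact sign-flip permutation test. None of the 8 passed after adjustment, since the adjusted p was 0.125 for these and at least 0.167 for the others by the same exact test. With 6 libraries, the steps to mir-21 and mir-17 could not pass over 8 comparisons, whatever their size, unless more of the 8 shared the lowest p.

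Both families were then set against 26 families that mark other cell types. In 6 of 6 libraries mir-338 was higher than 23 of the 26 and lower than mir-128 and mir-9, and its order with mir-132 varied. The log2 ratio of mir-338 was 2.11 ± 0.28 to neuronal mir-124, 1.04 ± 0.25 to neuronal mir-153 and -1.88 ± 0.29 to mir-128. It was 2.22 ± 0.22 to endothelial mir-126, 1.90 ± 0.23 to mir-143 of vessel smooth muscle and 6.68 ± 0.28 to mir-142 of microglia and white blood cells (SD, n = 6 each). The ratio to mir-9, at -1.58 ± 0.13, had the smallest spread of the 26.

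The lower family, mir-219, was above 15 of the 26 in 6 of 6 libraries and below 9, and its order varied against mir-133 and endocrine mir-375. It was lower than mir-124 by a log2 ratio of -1.82 ± 0.20, than mir-126 by -1.72 ± 0.27 and than mir-143 by -2.04 ± 0.24. It was higher than neuronal mir-137 by 0.91 ± 0.38, than mir-142 by 2.75 ± 0.33 and than red blood cell mir-451 by 1.80 ± 0.56 (SD, n = 6 each). The neural or vascular families mir-124, mir-153, mir-126 and mir-143 thus lay between the members, below mir-338 and above mir-219. So did mir-204 and mir-182 of the retina, pineal and choroid plexus list.

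Of these 52 comparisons, 49 passed by exact two-sided permutation of signs with p = 0.03125 and a Benjamini-Hochberg adjusted p of 0.0332. No p can be lower with 6 libraries, so these values do not tell large ratios from small ones. The adjusted p depends on how many of the 52 share that lowest p. Passing thus reflects the make-up of the list, which holds rare families such as mir-499 (3.01 CPM on average). The other comparisons were mir-338 with mir-132 (adjusted p = 0.191) and mir-219 with mir-133 (0.281) and with mir-375 (0.0975), by the same exact test. The level of mir-375 itself ranged from 5.23 to 1574 CPM.

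**Figure D4:**
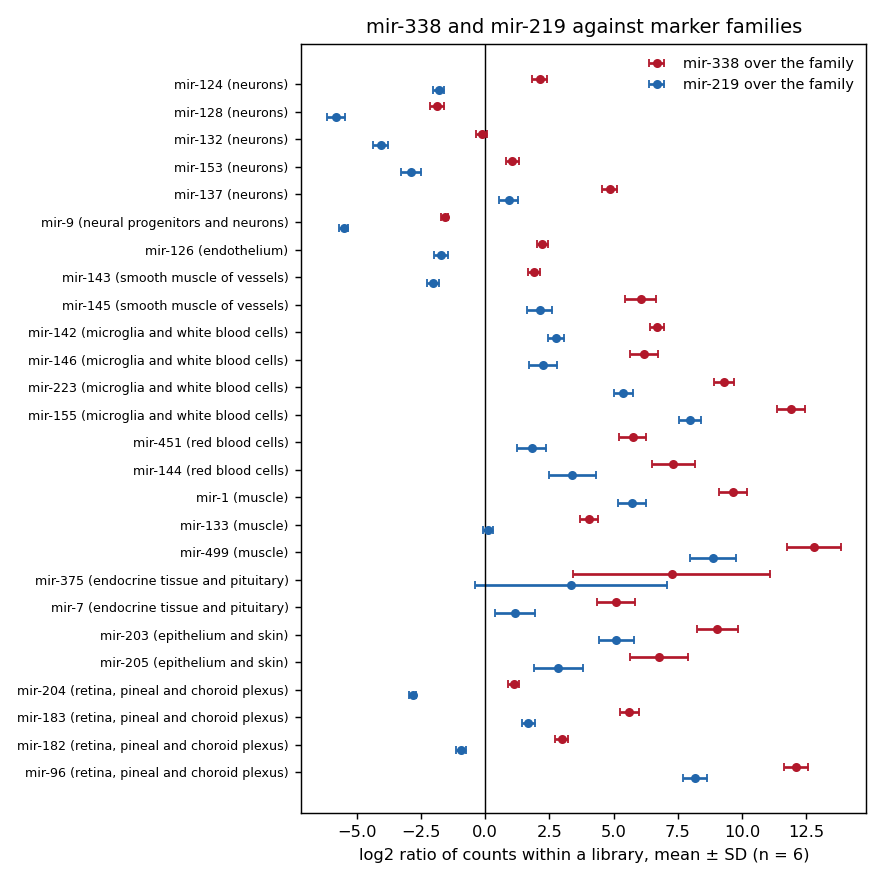
Within-library log2 ratio of counts of mir-338 (red) and mir-219 (blue) to each of 26 families that mark other cell types, as mean ± SD over 6 libraries; the line at 0 is an equal count. For mir-338 the means left of 0 are mir-128, mir-9 and mir-132, and for mir-219 they include mir-124, mir-126 and mir-143 as well.

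Other families tied to oligodendrocytes in published work formed a list of 14 names, of which 11 had a row: lin-4 (which takes in miR-125), mir-7, mir-9, mir-17, mir-19, mir-23, mir-27, mir-92, mir-138, mir-145 and mir-146. The names mir-20, mir-32 and mir-212 matched no row and are not analysed here. In mouse, miR-138 acts early in differentiation beside miR-219 and miR-338, miR-23a represses lamin B1, and the miR-17-92 cluster supports division of precursors. Several of these families are abundant in other brain cells, and mir-7, mir-9, mir-145 and mir-146 are also in the lists above. By edgeR's goodness of fit, 0 of the 11 were called variable, where 3.74% of all features were. In the same test 0 of the 11 had an unadjusted p under 0.05, against 18 of all 214, and DESeq2 marked 0 of them as dispersion outliers. The median SD of log2(CPM + 1) was 0.17 for the list and 0.27 over all 214. The list families are abundant, with ranks from 5 (lin-4) to 75 (mir-146) by mean level. Among the 20 features nearest in mean CPM, the median SD was 0.18 for mir-338 and 0.18 for mir-219. These features include list families: lin-4, mir-9, mir-27, mir-92 and mir-138 near mir-338, and mir-17, mir-19 and mir-23 near mir-219. The medians thus cannot tell whether the list was steadier than other features of like abundance.

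The levels of the list spanned both members. In 6 of 6 libraries mir-338 was higher than 7 of the 11 and lower than lin-4, mir-9 and mir-27, while its order with mir-92 varied. For mir-219, 5 were lower and 5 higher in 6 of 6 libraries, and mir-19 varied. The family mir-138, at 4234 ± 1267 CPM, lay between the members, with a log2 ratio of 2.10 ± 0.54 for mir-338 and -1.83 ± 0.46 for mir-219. The family mir-23, at 682.3 ± 49.8 CPM, lay below both, and mir-219 exceeded it by 0.75 ± 0.09 (SD, n = 6 each).

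No list family passed a test of moving with either member. Over the 22 pairs, r ranged from -0.54 to 0.69 for mir-338 and from -0.70 to 0.63 for mir-219. None of the 22 passed, the lowest adjusted p being 0.691 by the exact permutation test over 720 orders, and none had an unadjusted p under 0.05 for r. On plain CPM, 2 pairs had such a p, mir-219 with mir-19 (r = 0.82) and mir-219 with mir-9 (r = -0.82), each with an exact permutation p of 0.0347 and 0.382 after adjustment. With mir-138 the r was -0.30 for mir-338 (exact permutation p = 0.576) and 0.20 for mir-219 (exact permutation p = 0.728), and rho was -0.37 (exact p = 0.497) and -0.03 (exact p = 1.0). The highest for mir-338 was lin-4, with r = 0.69 (exact permutation p = 0.125) and rho = 0.66 (exact p = 0.175). The lowest for mir-219 was mir-9, with r = -0.70 (exact permutation p = 0.115) and its rho was -0.89 (exact permutation p = 0.0333; 0.642 after adjustment). With the 2 farthest libraries left out, r was -0.92 for mir-338 and -0.60 for mir-219 with mir-138, 0.997 for mir-338 with lin-4 and -0.69 for mir-219 with mir-9, each over 4 libraries only.

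The features whose pattern over the libraries was most like each member were found by r of log2(CPM + 1) among the 144 features that averaged 100 counts or more. For mir-338 these were mir-1027 (r = 0.99), mir-676 (0.91), mir-7641 (0.90), mir-301 (0.88) and mir-101 (0.88), over 6 libraries. For mir-219 they were mir-449 (r = 0.98), mir-21 (0.81), mir-187 (0.80), mir-133 (0.79) and mir-30 (0.76). The lists hold no feature in common, but lists this short drawn from 144 would mostly share none by chance. Spearman's rho with mir-338 was 1 for mir-1027, 0.77 for mir-676, 0.94 for mir-7641, 0.60 for mir-301 and 0.77 for mir-101. With mir-219 it was 0.94 for mir-449 and mir-133 and 0.77 for mir-21, mir-187 and mir-30. Without the 2 libraries farthest from the member's median, r for mir-338 was 0.996 with mir-1027 and 0.93 with mir-7641, but 0.45 with mir-676, 0.13 with mir-301 and 0.53 with mir-101, so the last 3 rested on those libraries. For mir-219 it was 0.98 with mir-449, 0.72 with mir-21, 0.64 with mir-187, 0.80 with mir-133 and 0.93 with mir-30. These are the top of a ranking and are given as a description. After adjustment over the 144, none passed for either member by the exact permutation test. In that test 10 for mir-338 and 1 for mir-219 had an unadjusted p under 0.05. The adjusted p was 0.200 for mir-1027 and 0.600 for mir-449 by the same exact test. The unadjusted p of mir-1027 there, 0.00139, was already the lowest that 6 libraries can reach. A lone feature thus could not pass over 144, however close its likeness, unless others had p-values nearly as low. That none passed is therefore no evidence against likeness.

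Likeness in order was not likeness in size. The row mir-1027, a name given to a moss miRNA, stood at 186.2, 162.6, 96.2, 148.9, 101.4 and 213.8 CPM in libraries 1 to 6. Its libraries fell in the same order as those of mir-338, but over a 2.22-fold range, so that it was 1.07% of the count of mir-338 in library 6 and 0.638% in library 5. The family mir-101, at 8275 ± 989 CPM, ranged 1.34-fold where mir-338 ranged 1.35-fold, and its log2 ratio to mir-338 had an SD of 0.08, the smallest of the 213 features set against it. The row mir-449, a family of ciliated cells, stood at 283.5, 494.6, 348.5, 193.1, 250.5 and 210.0 CPM, with libraries 2 and 3 highest as for mir-219. The steadiest ratio to mir-219 was that of let-7, the conserved differentiation family, with an SD of 0.07.

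The members were not each other's steadiest partner. The log2 ratio of mir-338 to mir-219 had an SD of 0.21. Of the 212 other features, 33 held a steadier ratio to mir-338 than mir-219 did, where the median SD of all was 0.35. For mir-219, 51 of the 212 held a steadier ratio than mir-338 did, with a median of 0.33.

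**Figure D5:**
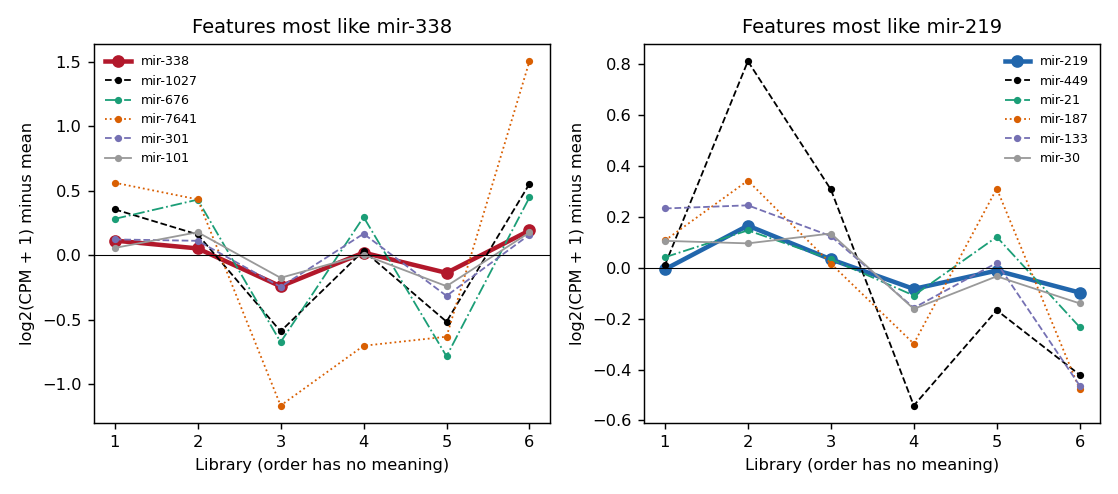
Log2(CPM + 1) minus the feature's mean, by library, for mir-338 (left, red) and mir-219 (right, blue) with the 5 features of highest r to each. Of the 10 features drawn, mir-1027 (left, black) has exactly the library order of its member, and both it and mir-449 (right, black) cover a wider range than the member; the vertical scales of the panels differ.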

How the data were processed

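The authors deposited raw counts, whole numbers per miRNA family or predicted feature, with 1 column per library and no pooling. The kit was Illumina's TruSeq for small RNA, per the labels' protocols. The submitters' processing notes name SAMtools 1.3.1-9, BWA 0.7.12-r1039, Trimmomatic 0.36 and bcl2fastq 1.8.4. For their roles, the genome build, the miRNA annotation and reads that match more than 1 place, the entry is: not given in the sources used here. Rows are not split into arms and mostly not into family members, so near-identical families can share reads. A few names have a further row, such as mir-132b beside mir-132 and mir-96a beside mir-96. The lists hold neither mir-132b (0.544% of counts on average) nor mir-96a (0.000520%). Mature sequences and coordinates are not used here.

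Libraries were numbered 1 to 6 in accession order, which only names them. From the counts, TMM factors, CPM and an intercept-only negative binomial fit at the trended dispersion were computed with edgeR 4.0.16 in R 4.3.3, and DESeq2 1.42.0 was an alternative. The goodness of fit used features that averaged 10 counts or more. Ratios used raw counts within a library, and log2 levels are log2(CPM + 1). The sign-flip tests used all 64 flips and the correlations all 720 orders (Python 3.11.15, numpy 2.4.6). The tests were tested on simulated data. For the goodness of fit, the spread added there was far larger than that of either member, so its power at their spreads was not tested. The families named were those of the lists, the 2 neighbours above and 2 below each member, and the 5 features of highest r; let-7 and the smallest ratio spreads were named after their values were seen. The members and lists were chosen with earlier results of these data known. Alternatives were other scalings, totals, filters and tests, and each library left out in turn; the relation to depth, the overlap of intervals as shares and the spread without each library were added after seeing the data.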

Additional observations from a re-analysis of the deposited data

Results flagged for a closer look

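Dixon's criterion for 6 values was applied to 50 levels, shares and ratios, and 1 of them had a library that stood apart, where chance gives about 1 in 20. It was the level of mir-92, next below mir-338 in abundance, at 21417 CPM in library 5, against 15130 to 16897 CPM in the others. In that library mir-338 stood at 15880 CPM, below mir-92. No level, share or ratio of mir-338 or mir-219 met the criterion.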

How the results depend on the processing

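With mir-181, the most abundant feature, left out of the total, the level of mir-338 was 24777 CPM, that of mir-219 was 1620 CPM and their summed share was 2.64%, because the total shrank. DESeq2 size factors, plain CPM and a total of named families only moved neither level by 1 SD, and leaving out 1 library cannot. The log2 ratio of mir-338 to mir-219 was 3.88 to 3.99 with each library left out, with an exact permutation p of 0.0625, the smallest that 5 libraries allow. By the same limit, the 49 comparisons with other cell types that passed became 0 without any 1 library, and none of the 52 changed direction. Against counting noise alone (Poisson), the chi-square per degree of freedom was 3029 for mir-338 and 71.1 for mir-219, and 177 of 214 features were called variable. DESeq2 marked 3 dispersion outliers, neither member among them. No paired analysis was possible because there is 1 group and the library numbers only name the samples. The steps to neighbours had no passing value under any alternative run, but with 1 library left out none could pass. DESeq2 size factors leave a ratio of counts within a library as it is, so these runs were no check of the steps. The relations to the list families had no passing value with DESeq2 size factors or plain CPM.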
